A study of Arabidopsis thaliana with 9 samples.

Results

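The cytochrome P450 and glutathione S-transferase (GST) genes described here are the 39 genes whose array annotation carries a P450 name (CYP, a number and a letter) or the name of a tau, phi, lambda, theta or zeta GST, each with a probe set assigned to that gene alone. CYP82C4 (AT4G31940) was left out by the same rule. They comprise 25 P450 and 14 GST genes, out of 16722 genes with such a probe set and 38408 probe sets in all. RefSeq gives names of this form to 283 Arabidopsis genes (236 P450 and 47 GST), so the arrays as annotated here cover a part of both families. Of the P450 genes, 21 belong to the CYP71B subfamily, which has 36 RefSeq members. The other 4 are CYP78A9, CYP79A2, CYP79C2 and CYP84A4. Of the GST genes, 11 are of the tau class (GSTU), 2 of the phi class (GSTF) and 1 of the lambda class (GSTL), while 0 theta or zeta genes met the rule.

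RNA came from roots of 4-day-old Arabidopsis thaliana seedlings in the Col-0 background, and was hybridised to 9 single-channel arrays. There were 3 arrays of a line overexpressing the basic helix-loop-helix transcription factor bHLH49, 3 of a bHLH49 loss-of-function mutant and 3 of wild type. The labels name neither the mutant allele nor the promoter of the overexpressor, nor whether each line is a single transformant, and repeats of a genotype are not said to be separate plantings, and the p-values given here cover only the spread from array to array, which may be technical. Transgenic seed was selected on kanamycin or phosphinothricin per the growth protocol, which does not say which plates carried a selection agent. Genotype and selection agent therefore cannot be told apart for these detoxification genes. The tissue label reads root, and the source label root tips.

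Cytochromes P450 are haem enzymes, mostly anchored in the endoplasmic reticulum, that use electrons from a reductase to insert oxygen into hormones, defence compounds, wall and lipid precursors or foreign chemicals. GSTs join the tripeptide glutathione to reactive compounds, which are then carried into the vacuole, or bind small molecules without converting them. The tau and phi classes are the large plant classes of this family, and many of their genes respond to herbicides, wounding and oxidative stress. Genes of both families often lie in rows of neighbouring copies, whose transcripts are similar enough that an array probe may read more than 1 of them. How far that happened here was not tested.

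No gene of either family was called as different between any pair of genotypes. A linear model over all 38408 probe sets (limma, Benjamini-Hochberg adjusted p below 0.05) called 0 of the 39 genes in the overexpressor against wild type, where 1.35% of all probe sets were called. It called 0 of 39 in the mutant against wild type (0.0234% of all probe sets) and 0 of 39 in the overexpressor against the mutant (1.83%). At background rates as low as these a count of 0 in 39 genes is near the background. An unadjusted p below 0.05 was reached by 6, 5 and 9 of the 39 genes in the 3 comparisons, in the same order. As shares these were 15.4%, 12.8% and 23.1%, against 13.6%, 8.44% and 15.1% of all probe sets. Among the 16722 probe sets assigned to 1 gene, as the 39 are, the shares were 13.8%, 7.64% and 15.0%. Of those 16722, the same fit called 262, 1 and 323 at the adjusted threshold. The smallest adjusted p of any gene was 0.183 for GSTU16 in the overexpressor against wild type, 0.439 for CYP84A4 in the mutant against wild type and 0.165 for CYP71B38 in the overexpressor against the mutant. The F test over the 3 genotypes gave its smallest adjusted p, 0.213, for CYP84A4.

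The array distributions were alike, with medians between 5.85 and 5.92, lower quartiles between 3.65 and 3.70 and upper quartiles between 7.99 and 8.02 on the log2 scale. RMA, the tool in the submitters' processing notes, makes distributions alike, so their likeness is no check of array quality. The correlation across probe sets was 0.988 to 0.993 for any 2 arrays. The level of bHLH49 itself was not analysed here, so the genotype labels were not checked against it. Of 10 root markers 6 were measured, with means over the 9 arrays from 7.34 for the root cap polygalacturonase RCPG to 10.44 for the root hair expansin EXPA18. Of 5 shoot markers, RCA and LHCB4.1 were measured, at 7.61 and 6.62. RCPG was the 1 marker of the 8 called in the overexpressor against wild type, with a log2 difference of 1.57 ± 0.15 (SE, adjusted p = 0.00358). It was also called against the mutant (0.94 ± 0.15, adjusted p = 0.0221). The mutant lay above wild type for RCPG without overlap, by 0.63 ± 0.15, which was not called (adjusted p = 0.365). The part of RCPG in the values below was not tested. In bulk root material, a change in the number of cells of a type and a change in RNA per cell cannot be told apart.

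The GST genes were measured across the whole range of the arrays. GSTU22, GSTU25, GSTU26, GSTU27 and GSTL3 had means above the upper quartiles, between 8.71 and 11.31. GSTF4, GSTU18, GSTU20, GSTU23 and GSTU28 lay between the quartiles, at 4.45 to 7.24. GSTU15, GSTU16, GSTU21 and GSTF3 were below the lower quartiles, at 2.44 to 3.50, where a probe set may hold little signal of its transcript. These are levels of different probe sets on the log2 scale, and set no order of transcript abundance between genes.

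**Figure D1:**
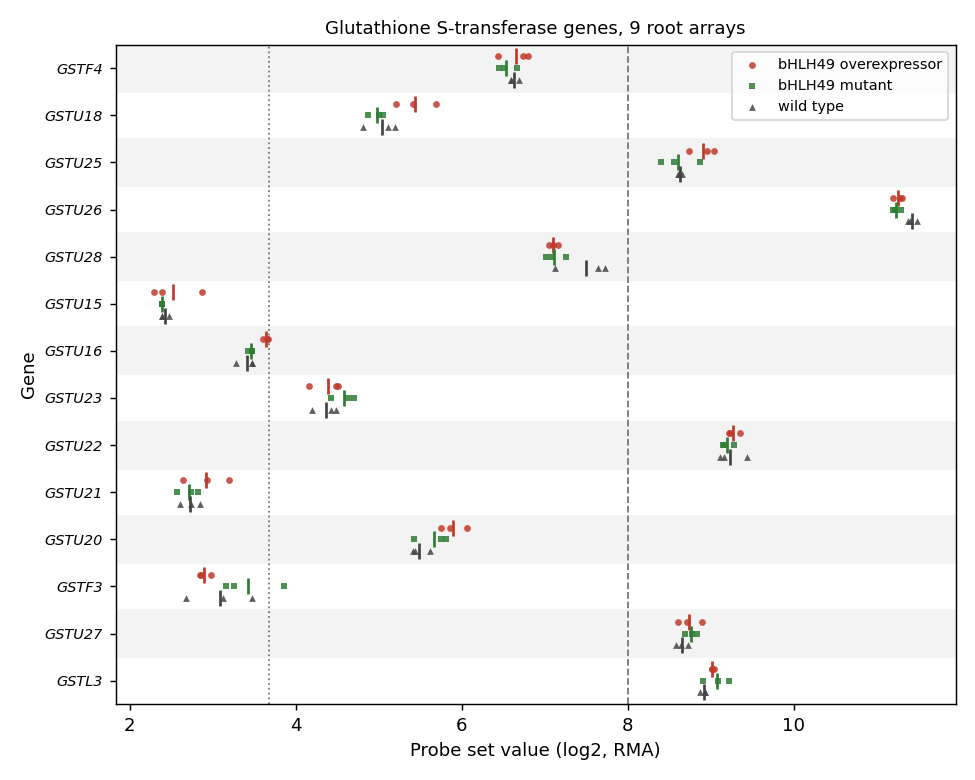
Values of the 14 GST genes on the 9 arrays (horizontal axis, log2 RMA value; vertical axis, genes in chromosome order). Each small symbol is 1 array and each vertical tick the mean of 3 arrays of the overexpressor (circles), mutant (squares) or wild type (triangles); the dotted and dashed lines mark the average lower and upper quartile of the arrays. The 3 genotypes lie close together beside the range between genes, and GSTF3 spreads most, from 2.68 to 3.86. GSTU18, GSTU20, GSTU25, GSTU16 and GSTL3 show the overexpressor symbols right of all wild-type symbols, and GSTU26 shows them left of all wild-type symbols.

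Among tau GSTs, the overexpressor arrays were higher than wild type for several genes by less than the fit could call. GSTU18 (AT1G10360) stood at 5.21, 5.41 and 5.69 in the overexpressor, at 5.0, 4.87 and 5.05 in the mutant and at 5.11, 5.19 and 4.81 in wild type. All 3 overexpressor arrays were above all 6 others. The log2 difference from wild type was 0.40 ± 0.14 (SE, 1.32-fold; limma adjusted p = 0.271), and from the mutant 0.47 ± 0.14 (adjusted p = 0.172).

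GSTU20 (AT1G78370), also described as FIP1, a partner of the jasmonate-conjugating enzyme FIN219/JAR1, stood at 5.75, 6.06 and 5.86 in the overexpressor, at 5.43, 5.75 and 5.81 in the mutant and at 5.62, 5.44 and 5.41 in wild type. The overexpressor lay above wild type without overlap, while the mutant overlapped both. The difference between overexpressor and wild type was 0.40 ± 0.12 (1.32-fold; adjusted p = 0.215). GSTU25 (AT1G17180), a GST known to conjugate the explosive trinitrotoluene, stood at 8.73, 9.04 and 8.96 in the overexpressor, at 8.56, 8.40 and 8.87 in the mutant and at 8.61, 8.62 and 8.65 in wild type. The difference was 0.28 ± 0.13 against wild type (adjusted p = 0.382) and 0.30 ± 0.13 against the mutant (adjusted p = 0.321; 0.19 without mutant replicate 2).

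GSTU16 (AT1G59700) was dim, at 3.65, 3.61 and 3.67 in the overexpressor, 3.48, 3.48 and 3.43 in the mutant and 3.48, 3.48 and 3.28 in wild type. The overexpressor lay above all other arrays by a small step, 0.23 ± 0.07 over wild type and 0.18 ± 0.07 over the mutant (adjusted p = 0.183 and 0.256). Of the mutant and wild-type values of GSTU16, 4 are the same deposited value, which may lower its standard error. Its neighbour GSTU15, with 3 genes between them, stood at 2.87, 2.29 and 2.39 in the overexpressor, 2.39, 2.39 and 2.38 in the mutant and 2.39, 2.39 and 2.47 in wild type, a difference of 0.10 ± 0.13 between overexpressor and wild type.

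GSTU26 and GSTU28 had lower values in both bHLH49 lines than in wild type, in comparisons that share the same 3 wild-type arrays. GSTU26 (AT1G17190), which directly neighbours GSTU25, stood at 11.20, 11.28 and 11.30 in the overexpressor, 11.22, 11.29 and 11.20 in the mutant and 11.38, 11.49 and 11.41 in wild type. Wild type was above all 6 other arrays. The differences were -0.17 ± 0.06 for the overexpressor (adjusted p = 0.262) and -0.19 ± 0.06 for the mutant (adjusted p = 0.488), and both lines differed from each other by 0.02 ± 0.06. The direct neighbours GSTU25 and GSTU26 thus had differences of opposite sign between overexpressor and wild type, neither called.

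GSTU28 (AT1G53680) stood at 7.10, 7.06 and 7.16 in the overexpressor, 7.09, 7.26 and 7.01 in the mutant and 7.73, 7.64 and 7.13 in wild type. Wild-type repeat 3 lay among the arrays of both lines, and the other wild-type arrays lay above them. The differences were -0.40 ± 0.15 for the overexpressor (adjusted p = 0.307) and -0.38 ± 0.15 for the mutant (adjusted p = 0.585). The overexpressor difference depended on which wild-type arrays were kept. It shrank to -0.28 when repeat 1 was dropped (adjusted p = 0.571) and to -0.32 when repeat 2 was dropped (adjusted p = 0.538). Dropping repeat 3, the lowest wild-type array, gave -0.58 (adjusted p = 0.0504). That last value was the nearest approach to the threshold by any of the 39 genes in any setting tried.

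The remaining GST genes had smaller differences or a wider spread. GSTU20 to GSTU23 form a row with at most 2 other genes between neighbours, in which all 4 had differences above 0 between overexpressor and wild type, from 0.01 for GSTU23 to the 0.40 of GSTU20. GSTU22 stood at 9.26 ± 0.08 in the overexpressor, 9.19 ± 0.08 in the mutant and 9.24 ± 0.18 in wild type (SD, n = 3). GSTU21 was dim, with a difference of 0.19 ± 0.14. GSTU23 differed by 0.22 ± 0.13 between mutant and wild type (adjusted p = 0.691). GSTU27 averaged 8.74 ± 0.14 in the overexpressor, 8.77 ± 0.07 in the mutant and 8.65 ± 0.07 in wild type.

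Both phi genes and the lambda gene were likewise not called. GSTF3 (AT2G02930), a near-identical copy of GSTF2 that the probes may also read, stood at 2.84, 2.85 and 2.98 in the overexpressor, 3.86, 3.26 and 3.15 in the mutant and 3.47, 2.68 and 3.13 in wild type. It was dim and varied widely within mutant and wild type, and its difference between overexpressor and mutant, -0.53 ± 0.23, was not called (adjusted p = 0.334) and was -0.31 without mutant replicate 1. GSTF4 differed by 0.03 ± 0.11 between overexpressor and wild type. GSTL3 (AT5G02790), of the lambda class, whose enzymes reduce glutathione adducts in place of forming them, averaged 9.02 ± 0.02 in the overexpressor, 9.07 ± 0.15 in the mutant and 8.92 ± 0.04 in wild type. Its overexpressor arrays lay above wild type without overlap, by 0.10 ± 0.08 (adjusted p = 0.631).

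The 25 measured P450 probe sets, 21 of them of the CYP71B subfamily, were mostly dim. Of the 25, 15 had means below the lower quartiles (2.22 to 3.48), 9 lay between the quartiles (3.78 to 7.85) and CYP71B29 alone lay above the upper quartiles, at 8.63. Among GST genes the corresponding counts were 4, 5 and 5. CYP71B29 stood at 8.62, 8.62 and 8.62 in the overexpressor, at 8.90, 8.62 and 8.52 in the mutant and at 8.64, 8.58 and 8.57 in wild type. Its direct neighbour CYP71B28 was dim, at 3.39 ± 0.15 in the overexpressor, 3.21 ± 0.02 in the mutant and 3.41 ± 0.01 in wild type. The mutant lay below wild type without overlap for CYP71B28, by -0.20 ± 0.07 (adjusted p = 0.565).

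**Figure D2:**
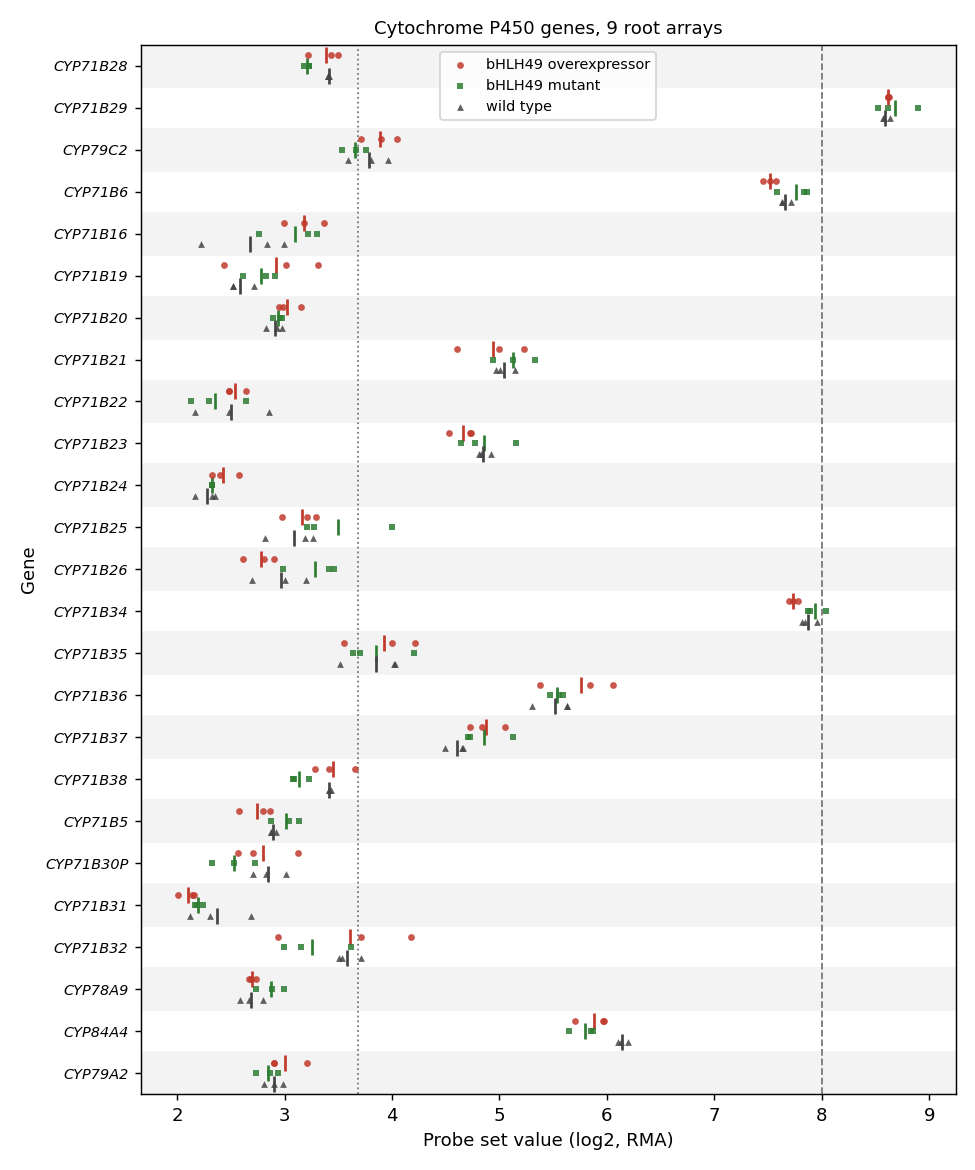
Values of the 25 P450 genes on the 9 arrays (horizontal axis, log2 RMA value; vertical axis, genes in chromosome order). Each small symbol is 1 array and each vertical tick the mean of 3 arrays of the overexpressor (circles), mutant (squares) or wild type (triangles); the dotted and dashed lines mark the average lower and upper quartile of the arrays. Most genes lie left of the dotted line, and CYP84A4 shows wild type right of both bHLH49 lines.

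P450 genes with a known substrate were measured in small number. CYP84A4 (AT5G04330), which acts on phenylpropanoids in the synthesis of arabidopyrones, stood at 5.71, 5.96 and 5.97 in the overexpressor, 5.65, 5.88 and 5.85 in the mutant and 6.19, 6.13 and 6.10 in wild type. All 6 arrays of both lines lay below wild type. The differences were -0.26 ± 0.09 for the overexpressor (adjusted p = 0.278) and -0.35 ± 0.09 for the mutant (adjusted p = 0.439), again against the same wild-type arrays.

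CYP71B6 (AT2G24180), which turns indole-3-acetonitrile into precursors of indole-3-carboxylic acid, stood at 7.58, 7.46 and 7.52 in the overexpressor, 7.58, 7.86 and 7.83 in the mutant and 7.71, 7.63 and 7.63 in wild type. The overexpressor had the lowest mean of the 3 genotypes, by -0.24 ± 0.08 against the mutant (adjusted p = 0.214) and by -0.14 ± 0.08 against wild type (adjusted p = 0.51). CYP79A2 (AT5G05260), which starts the synthesis of benzyl glucosinolate from phenylalanine, and CYP79C2 of the same family were dim or nearly so. Their differences between overexpressor and wild type were 0.11 ± 0.10 and 0.10 ± 0.12. CYP78A9 (AT3G61880), of a group of P450 genes that promote organ and seed growth, averaged 2.70 ± 0.03 in the overexpressor, 2.87 ± 0.13 in the mutant and 2.68 ± 0.11 in wild type.

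The CYP71B genes on chromosome 3 fall into rows of neighbours (at most 3 other genes between members). The first row holds 7 genes from CYP71B16 to CYP71B24, of which 5 were below the lower quartiles. CYP71B16 (AT3G26150) stood at 3.00, 3.37 and 3.18 in the overexpressor, 3.30, 2.76 and 3.22 in the mutant and 2.22, 3.00 and 2.83 in wild type. Its difference of 0.50 ± 0.23 between overexpressor and wild type was the largest positive difference of the 39 genes in that comparison and was not called (adjusted p = 0.388). Without wild-type replicate 1, the lowest array, it was 0.27. CYP71B19 stood at 2.44, 3.01 and 3.31 in the overexpressor, 2.61, 2.82 and 2.91 in the mutant and 2.52, 2.52 and 2.72 in wild type, with a difference of 0.33 ± 0.20 between overexpressor and wild type (0.14 without overexpressor replicate 3 and 0.58 without overexpressor replicate 1). CYP71B24, one of the dimmest probe sets, stood at 2.40, 2.58 and 2.32 in the overexpressor, at 2.32 on all 3 mutant arrays and at 2.32, 2.17 and 2.35 in wild type, so its arrays overlapped. The brighter genes of the row, CYP71B21 and CYP71B23, differed by -0.10 ± 0.16 and -0.19 ± 0.13.

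The second row holds 6 genes from CYP71B25 to CYP71B37, of which 2 were below the lower quartiles. CYP71B34 (AT3G26300) stood at 7.73, 7.69 and 7.78 in the overexpressor, 8.04, 7.89 and 7.88 in the mutant and 7.85, 7.96 and 7.82 in wild type. The overexpressor lay below all 6 other arrays, by -0.14 ± 0.07 against wild type (adjusted p = 0.419) and by -0.20 ± 0.07 against the mutant (adjusted p = 0.205). The next 3 genes along the row, CYP71B35, CYP71B36 and CYP71B37, had differences above 0 between overexpressor and wild type, at 0.07 ± 0.23, 0.24 ± 0.17 and 0.27 ± 0.13. CYP71B37 stood at 4.84, 4.72 and 5.05 in the overexpressor, 4.71, 5.13 and 4.72 in the mutant and 4.65, 4.66 and 4.49 in wild type, so that both lines lay above wild type without overlap. The mutant difference was 0.25 ± 0.13 (adjusted p = 0.652), and 0.11 without mutant replicate 2.

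CYP71B26 and CYP71B25, in the same row, had some of the larger differences between both lines. CYP71B26 (AT3G26290) stood at 2.62, 2.91 and 2.81 in the overexpressor, 2.98, 3.42 and 3.46 in the mutant and 3.01, 2.70 and 3.20 in wild type. The overexpressor lay below the mutant without overlap, by -0.51 ± 0.17 (adjusted p = 0.202). CYP71B25 had 1 high mutant array, 4.01 in repeat 3 against 3.27 and 3.21 in the others, and its difference of -0.34 ± 0.22 between overexpressor and mutant was -0.08 without that array. Its difference between mutant and wild type, 0.40 ± 0.22, was 0.15 without it and 0.27 without wild-type replicate 3.

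The third row holds CYP71B5, CYP71B30P, CYP71B31 and CYP71B32, all below the lower quartiles. CYP71B31 (AT3G53300), known to oxidise the floral scent compound linalool, had the lowest mean of the 39 probe sets, at 2.22, and a difference of -0.27 ± 0.13 between overexpressor and wild type (adjusted p = 0.438; -0.11 without wild-type replicate 1). CYP71B5 averaged 2.75 ± 0.15 in the overexpressor, 3.01 ± 0.13 in the mutant and 2.89 ± 0.03 in wild type. The difference between overexpressor and mutant was -0.27 ± 0.09 (adjusted p = 0.235). CYP71B30P, whose name marks a pseudogene though RefSeq lists it as protein coding, differed by -0.32 ± 0.17 between mutant and wild type (adjusted p = 0.645). CYP71B32 varied most among arrays of a genotype, at 2.94, 3.71 and 4.18 in the overexpressor, 3.15, 3.00 and 3.62 in the mutant and 3.53, 3.50 and 3.71 in wild type.

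CYP71B38 (AT3G44250) lies apart from these rows. It stood at 3.65, 3.29 and 3.41 in the overexpressor, 3.23, 3.09 and 3.08 in the mutant and 3.43, 3.41 and 3.41 in wild type. The mutant lay below both other genotypes without overlap, with a difference of -0.29 ± 0.10 from wild type (adjusted p = 0.508), while the overexpressor exceeded the mutant by 0.32 ± 0.10 (adjusted p = 0.165). Its mean was below the lower quartiles of the arrays, in a range where a probe set may hold little signal of its transcript.

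**Figure D3:**
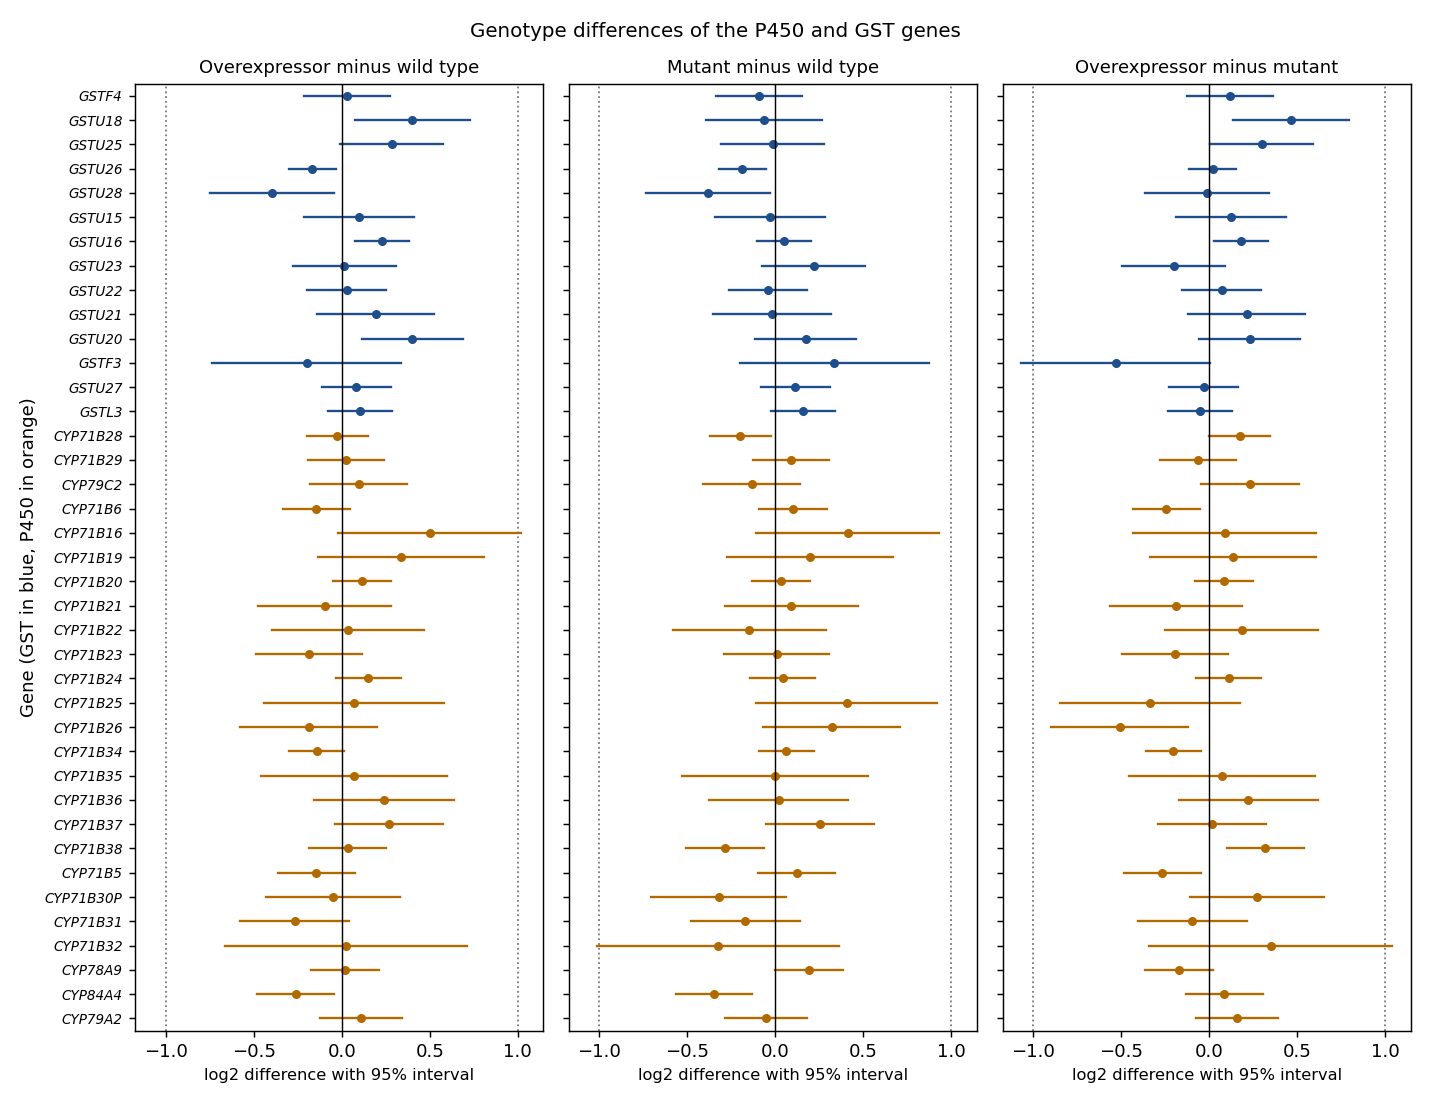
Log2 differences of the 39 genes (points) with 95% intervals of the limma fit (bars) for overexpressor minus wild type, mutant minus wild type and overexpressor minus mutant; the vertical axis lists the genes, GSTs above and P450s below, and dotted lines mark a 2-fold change in either direction. The points lie between -0.53 and 0.50, and 38, 38 and 37 of the 39 bars stay within the dotted lines.

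Taking the genes as 2 families, the differences were small and went both ways. Between overexpressor and wild type, 15 of 25 P450 genes were above 0 and 10 below, with a median of 0.03. Of the 14 GST genes, 11 were above and 3 below, with a median of 0.09, where 48.2% of all probe sets were above 0 and their median was -0.01. An unadjusted p below 0.05 was reached by 6 of the 39 genes (GSTU16, GSTU18 and GSTU20 above 0; GSTU26, GSTU28 and CYP84A4 below), 15.4% against 13.6% of all probe sets. For 12 of the 39, 6 in each direction, the overexpressor and wild-type values were fully separated, which is 30.8% against 19.5% of all probe sets without overlap. Those 12 were 6 of the 14 GST and 6 of the 25 P450 genes.

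Between mutant and wild type, the medians were 0.03 for P450 and -0.02 for GST genes, beside 0.00 for all probe sets. An unadjusted p below 0.05 was reached by 5 of the 39 genes (CYP71B28, CYP71B38, CYP84A4, GSTU26 and GSTU28, all below 0), 12.8% against 8.44% of all probe sets. The arrays did not overlap for 5 of the 39, 1 above and 4 below, against 12.4% of all probe sets. Between overexpressor and mutant the medians were 0.08 and 0.09, beside -0.01 for all probe sets. An unadjusted p below 0.05 was reached by 9 of the 39, 23.1% against 15.1%, and the arrays did not overlap for 9, 3 above and 6 below, against 20.5%.

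The intervals say how large a change in a probe set value could have been missed. They hold for 1 gene at a time and are not adjusted for the number of genes. For the 19 genes below the lower quartiles, a narrow interval may not bound the change of the transcript. For 38 of the 39 genes the 95% interval of the overexpressor difference from wild type lay within a 2-fold change in either direction, and for 24 it lay within 0.5 on the log2 scale. The exception was CYP71B16, whose interval reached from -0.02 to 1.02. For the mutant against wild type 38 intervals stayed within 2-fold, the exception being CYP71B32 (-1.02 to 0.36), and for the overexpressor against the mutant 37 did, the exceptions being CYP71B32 (-0.34 to 1.04) and GSTF3 (-1.07 to 0.01). A difference that misses the threshold does not show that a gene was equal between genotypes.

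**Figure D4:**
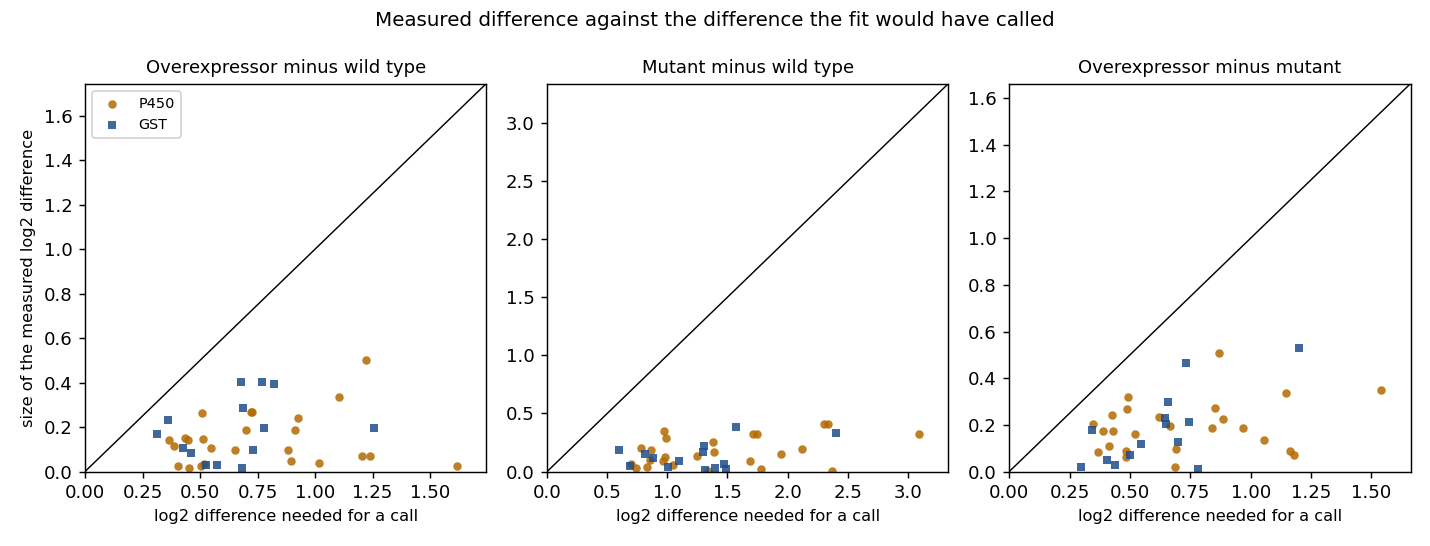
Size of the measured log2 difference (vertical axis) against the log2 difference that the fit would have called for the same gene (horizontal axis), in the 3 comparisons, with P450 genes as circles and GST genes as squares; each panel has its own scale, equal on both axes, and the line marks equality. All 39 genes lie below the line in each panel, and GSTU16 in the overexpressor, at 0.23 where 0.36 was needed, is among the nearest.

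The difference a gene would have needed for a call follows from its standard error and from the largest p that was called over all probe sets. For the overexpressor against wild type this was 0.68 in the median of the 39 genes, from 0.31 for GSTU26 to 1.61 for CYP71B32. For the 6 genes above the upper quartiles the median was 0.48, and for the 19 below the lower quartiles 0.73. The median needed was 1.31 for the mutant against wild type, where few probe sets were called, and 0.65 for the overexpressor against the mutant. The median standard error of the 39 genes, 0.13, was above that of all probe sets, 0.10.

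Other genes of these pathways were seldom measured with a probe set of their own. Lists of 68 P450 genes drawn up by role (hormones, sterols, carotenoids, phenylpropanoids, lipid barriers, triterpenes, defence compounds and organ growth) held 1 measured gene, CYP78A9 of the organ growth list. These lists do not include CYP84A4, CYP71B6 or CYP79A2. The camalexin enzyme CYP71B15 (PAD3) and the suberin hydroxylase CYP86A1 were not analysed here. Of 23 partner genes (electron donors, glutathione synthesis and reduction, vacuolar transporters, TGA factors and triterpene or indole partners) 4 were measured and 0 were called in any comparison. The glutathione reductases GR1 and GR2, which regenerate the glutathione that GSTs use, differed by 0.05 ± 0.05 and 0.07 ± 0.05 between overexpressor and wild type. UGT74B1, the glucosyltransferase of glucosinolate synthesis, differed by -0.01 ± 0.05. THAA2, an acyltransferase gene of the thalianol triterpene cluster, whose P450 genes were not analysed here, stood at 5.05, 5.48 and 5.50 in the overexpressor, 4.16, 4.70 and 4.70 in the mutant and 4.74, 4.79 and 4.48 in wild type. The overexpressor lay above all other arrays, by 0.83 ± 0.18 against the mutant (adjusted p = 0.0784) and 0.67 ± 0.18 against wild type (adjusted p = 0.16).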

How the data were processed

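Expression was measured on 9 single-channel arrays of root RNA, 3 per genotype. The authors deposited 1 table of log2 values per probe set; RMA is the tool in the submitters' processing notes, with version and settings not given in the sources used here. RMA makes array distributions alike, so a shift shared by most transcripts would not show. The log2 values were used as deposited, and arrays have no read depth: their number limits the precision.

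Gene names came from the annotation of the array platform, which can be old, and were updated by gene number through RefSeq (TAIR10.1), used for names and gene order; all 39 genes matched. Linear models over all 38408 probe sets and 9 arrays were fitted with limma 3.58.1 in R 4.3.3 (6 residual and 1.85 prior degrees of freedom), with Benjamini-Hochberg adjustment across the whole table. The fit was tested on simulated data with changes larger than any difference of the 39 genes. That test does not cover differences of their size. Errors are SE for differences and SD for levels. Genes were named where called, where among the 5 largest differences in each direction of a comparison, by level (5 highest, 3 lowest) as measured members of the P450 role lists, or as called partner genes; genes outside this rule, the 4 uncalled partner genes among them, were named after their values were seen. The members and lists were chosen with earlier results of these data known. Alternatives were a replicate block, other variance priors, array weights, fewer arrays, other normalizations, filters on dim probe sets and leaving out each array.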

Additional observations from a re-analysis of the deposited data

How the results depend on the processing

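Under all 15 alternatives of each comparison the count of called genes was 0 of those tested, as in the values reported, with the smallest adjusted p between 0.0504 and 0.337 for the overexpressor against wild type, 0.186 and 0.69 for the mutant against wild type and 0.0775 and 0.292 for the overexpressor against the mutant. Over the probe sets each tested, the same alternatives called 174 to 878, 1 to 13 and 260 to 1211. The values reported had 520, 9 and 702 of 38408. The highest counts came from dropping dim features up to the 50th percentile, which left 19203 probe sets. There the shares called were 4.57%, 0.0677% and 6.31%, against 1.35%, 0.0234% and 1.83% in the values reported. The 30 differences of genes named for their size kept their sign in all 408 recomputed values. They were picked as the largest in these arrays, and a replicate block, other variance priors or filters leave a difference unchanged. Their kept signs are therefore no support for them. Among all 39 genes, 8 changed sign in the overexpressor against wild type without overexpressor replicate 1, the most of any setting. The repeat numbers are shared between genotypes, but arrays with the same number did not deviate together (correlations of deviations between -0.09 and 0.03), so they were not taken as pairs. With a replicate block, 0 of the 39 genes were called in each comparison. The family medians moved by more than their spread between arrays in a single setting: when dim features up to the 50th percentile were dropped, which leaves 4 of 25 P450 genes, the P450 median was -0.14 for the overexpressor against wild type and -0.13 for the overexpressor against the mutant, where it was 0.03 and 0.08. Smaller moves also changed the sign of family medians near 0. When dim features up to the 25th percentile were dropped, the P450 median was -0.04 for the overexpressor against wild type. It was -0.02 for the overexpressor against the mutant in that setting. The GST median for the mutant against wild type was 0.05 without mutant replicate 2. Dim signal limits what can be seen for the 19 genes below the lower quartiles, and 3 arrays a genotype limit all of them.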

Other observations

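The 4 P450 genes above the 50th percentile of the mean were CYP71B6, CYP71B29, CYP71B34 and CYP84A4. CYP71B6, CYP71B34 and CYP84A4 lay below wild type without overlap in the overexpressor, and CYP71B29 differed by 0.03 ± 0.09; none of the 4 was called. This subset was seen after the values were known.

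Some probe sets hold the same deposited value on several arrays. CYP71B24 had 1 value on all 3 mutant arrays, which gives that group an SD of 0. Such repeats occurred in 15 of the 39 genes (38.5%), and in 12 of the 19 below the lower quartiles (63.2%), where 40.2% of all probe sets and 50.0% of those below the lower quartiles had them. The standard error of the fit pools the 3 genotypes, so it is not 0 for these genes. What causes the repeats was not tested.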
